A study of Mus musculus with 4 samples.

Results

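The cytochrome P450 genes are described here in gonadal white adipose tissue (WAT) of male mice on a normal or a fat diet. They were chosen by name alone, as every gene whose symbol is Cyp, a family number, a single subfamily letter and a gene number, such as Cyp2e1. There were 85 such genes among 21225 probe sets, of which 20239 carried a gene symbol, and each gene was read by 1 probe set. The 85 genes fell into 15 families and 37 subfamilies.

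NMRI mice, an outbred strain, received standard food until the age of 40 days and then for 8 days either the normal diet (ND, 3.3% fat) or the fat diet (FD, 18% fat), so that all were 48 days old when the gonadal fat pads were taken. The labels name no engineered allele and no drug. The foods came from different suppliers, so that the diets can differ in more than fat. RNA of 3 mice was pooled for each diet, and each pool was put on 2 Affymetrix mouse gene arrays, here called ND1, ND2, FD1 and FD2. The 2 arrays of a diet are thus repeats of 1 biological sample, and no spread between animals can be had from them. All values are therefore given without a p-value, and the difference between duplicate arrays measures technical error only.

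P450 enzymes are heme proteins that insert an oxygen atom into small lipophilic molecules, with electrons that reach them from NADPH through P450 reductase in the endoplasmic reticulum or through ferredoxin in mitochondria. Some members make or clear signals, among them steroid hormones, bile acids, vitamin D, retinoic acid and oxygenated fatty acids, and others break down drugs and toxins, chiefly in liver. In fat pads, P450 enzymes are known for fatty acid oxidation and for local handling of steroids and retinoids.

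Values are log2 expression values, on which a difference of 1 is a doubling. A gene was called higher or lower in FD under 3 conditions. Its diet means had to lie 1.5-fold apart or more (0.58 in log2), all FD arrays had to be on the same side of all ND arrays, and its level averaged across the arrays had to reach 6. A mean of at least 6 was found for 48 of the 85 P450 genes. The other 37 lay under it, 25 of them in all 4 arrays. Among the 48 genes, 3 were called higher and 5 lower in FD, which is 6.25% and 10.4% of them. The same rule called 1.33% of all 18211 probe sets at this level higher, 4.28% lower and 5.61% in either direction. The remaining 40 P450 genes all differed by less than 1.5-fold, with differences of -0.47 to 0.45. The median difference of the 48 genes, FD minus ND, was 0.01 (range -4.74 to 0.85), and that of all probe sets at the same level was 0.03. In bulk tissue, fewer cells of a type and less RNA per cell cannot be told apart.

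Array medians ranged from 8.11 to 8.19 over all probe sets. Pearson's r over all probe sets was 0.996 between the ND duplicates and 0.998 between the FD duplicates. Over the 85 P450 genes the duplicates gave r = 0.992 in each diet, whereas arrays of different diets gave 0.918 to 0.929, against 0.978 to 0.980 over all probe sets. These correlations run across genes, which are not independent replicates. Over only 85 genes, r can also depend strongly on single genes with large differences, such as Cyp17a1 (-4.74) and Cyp2j13 (-2.88). It does not show that the family as a whole differed more than other genes. The tissue carried the markers of fat cells, as all 9 adipocyte markers read were above 6 in every array. Adipocyte genes summed to a log2 level of 16.34 and 16.41 in ND and 16.50 and 16.47 in FD, and none of the 9 was called. The marker lists were written with earlier results of these data known, so their counts describe the lists and are no independent support. Among these lists, the markers of epididymis and liver differed most between the diets. Of 10 epididymis markers at a mean of at least 6, 8 were lower in FD and none higher. Among these 8, Adam7, Rnase9, Defb22 and Defb26 had FD means of 4.65 to 5.91, so they passed the level only through ND. The log2 sum of that list was 15.10 and 15.08 in ND against 12.19 and 12.11 in FD. Of 10 hepatocyte markers, 8 were higher in FD and none lower, with sums of 10.13 and 10.23 in ND and 12.43 and 12.50 in FD. Their part in the P450 results was not tested, and single markers are given again beside the first genes they moved with.

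**Figure D1:**
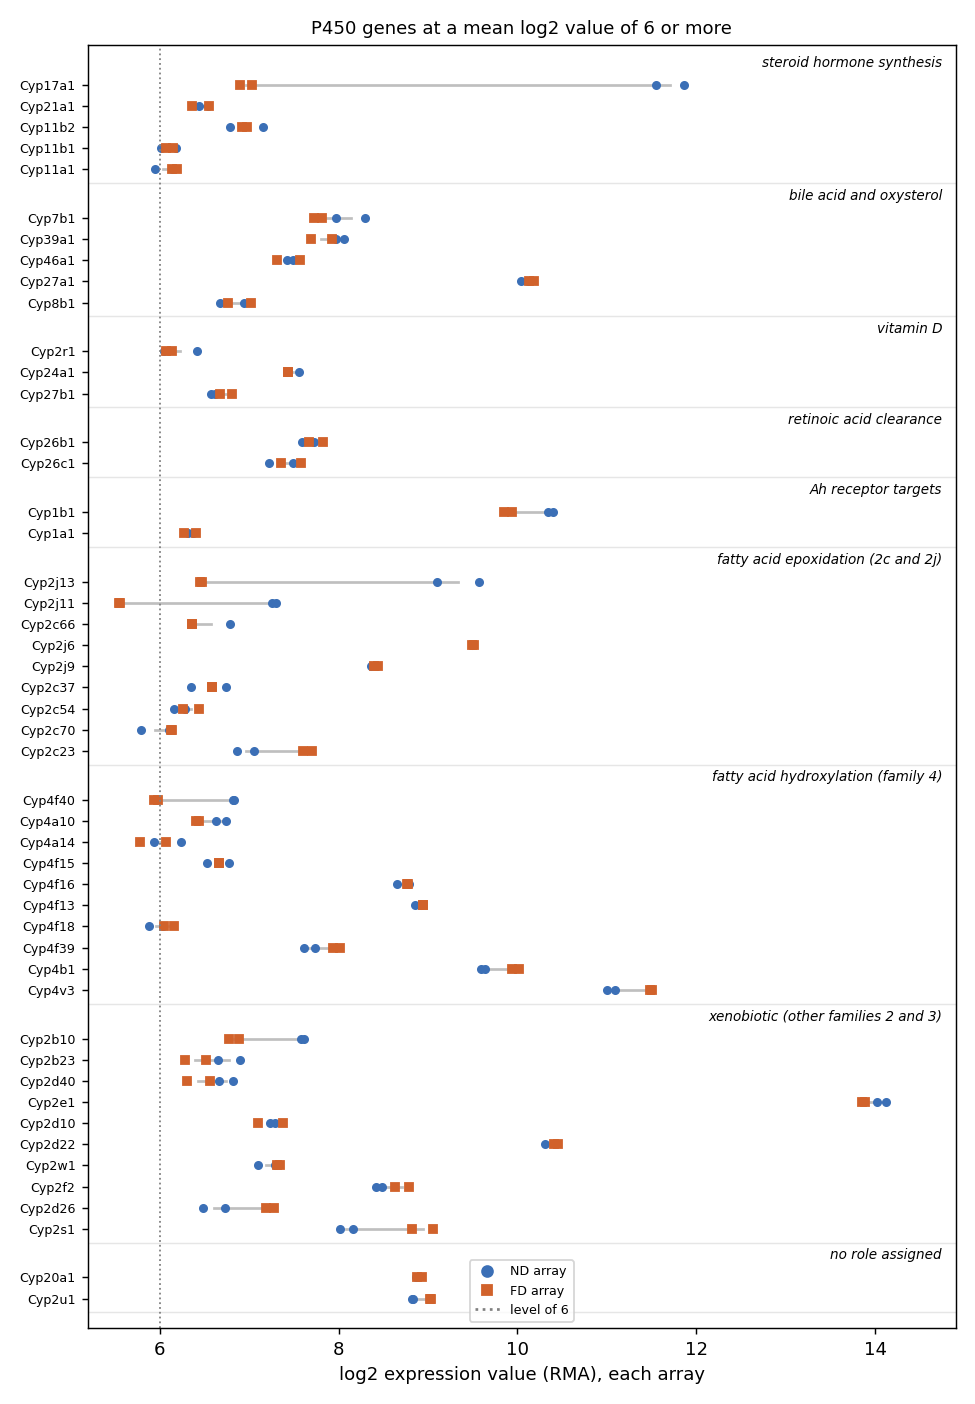
Log2 expression value (x axis) of each of the 48 P450 genes at a mean of at least 6 (rows, grouped by role). Circles are the 2 ND arrays, squares the 2 FD arrays, grey lines join the diet means and the dotted line marks 6. Cyp17a1, Cyp2j13 and Cyp2j11 show the widest gaps, with the FD arrays to the left, while most genes have overlapping or adjoining symbols.

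The regulatory sequence of some P450 genes that behaved differently inside a single gene cluster is shown first. Subfamily 2j enzymes convert arachidonic acid and related fatty acids to epoxides. In the Cyp2j cluster of chromosome 4, Cyp2j13 and Cyp2j11 were lower in FD while Cyp2j6 and Cyp2j9, in the same cluster, differed by 0.01 and 0.02. The windows run from 250 bases before the transcript start to 50 bases after it, 5′ to 3′ on the gene's strand, and were taken from RefSeq (GRCm38.p6). They lie at chr4:96077491-96077790 for Cyp2j13, chr4:96348631-96348930 for Cyp2j11, chr4:96553602-96553901 for Cyp2j6 and chr4:96591436-96591735 for Cyp2j9, all on the minus strand. Cyp2j13 has a further annotated start close by, whose window overlaps this one and is not shown. Capitals mark matches to GCGTG, the core of the site bound by the aryl hydrocarbon (Ah) receptor, or to AGAACA, a core motif of steroid receptor sites, each searched on both strands.
Cyp2j13: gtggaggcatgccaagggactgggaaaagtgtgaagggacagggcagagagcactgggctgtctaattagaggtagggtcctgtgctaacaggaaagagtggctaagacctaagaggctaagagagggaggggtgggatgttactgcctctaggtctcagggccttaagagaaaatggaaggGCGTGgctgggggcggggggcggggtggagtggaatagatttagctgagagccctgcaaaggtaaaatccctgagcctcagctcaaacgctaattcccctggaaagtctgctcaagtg
Cyp2j11: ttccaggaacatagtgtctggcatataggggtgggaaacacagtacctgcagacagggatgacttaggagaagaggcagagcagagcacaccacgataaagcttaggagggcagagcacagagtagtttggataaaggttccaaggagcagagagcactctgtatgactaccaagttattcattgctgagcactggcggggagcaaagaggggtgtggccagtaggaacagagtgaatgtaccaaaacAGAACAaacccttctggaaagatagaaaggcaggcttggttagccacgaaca
Cyp2j6: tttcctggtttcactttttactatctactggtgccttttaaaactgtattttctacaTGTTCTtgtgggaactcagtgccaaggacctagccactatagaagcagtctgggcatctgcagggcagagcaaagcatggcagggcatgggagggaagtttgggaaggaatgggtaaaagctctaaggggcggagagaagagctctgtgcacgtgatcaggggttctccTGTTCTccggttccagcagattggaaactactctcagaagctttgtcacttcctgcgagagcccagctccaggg
Cyp2j9: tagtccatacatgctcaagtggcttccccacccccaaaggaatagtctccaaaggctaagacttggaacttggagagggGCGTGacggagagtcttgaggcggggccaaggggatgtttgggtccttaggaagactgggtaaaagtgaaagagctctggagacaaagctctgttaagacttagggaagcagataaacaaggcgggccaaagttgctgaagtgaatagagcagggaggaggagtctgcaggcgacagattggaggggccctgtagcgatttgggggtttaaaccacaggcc
Cyp2j13 and Cyp2j9 each held a GCGTG match in these windows, 68 and 171 bases before the start. In Cyp2j11, AGAACA began 2 bases before the start and ran across it. Cyp2j6 held the reverse complement of this motif, TGTTCT, 193 and 24 bases before the start. None of the 4 windows held TATAAA or AGGTCA in either orientation. The matches did not divide the pair that was lower from the pair that was not.

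On chromosome 7, Cyp2s1 was higher in FD and Cyp2b10, the next gene in the RefSeq order, was lower. Cyp2s1 is a P450 known from epithelia and, like family 1, as a target of the Ah receptor, and Cyp2b10 is the classic target of the xenobiotic receptor CAR in liver. Their windows lie at chr7:25816476-25816775 on the minus strand and at chr7:25897408-25897707 on the plus strand, with GCGTG or its reverse complement CACGC in capitals.
Cyp2s1: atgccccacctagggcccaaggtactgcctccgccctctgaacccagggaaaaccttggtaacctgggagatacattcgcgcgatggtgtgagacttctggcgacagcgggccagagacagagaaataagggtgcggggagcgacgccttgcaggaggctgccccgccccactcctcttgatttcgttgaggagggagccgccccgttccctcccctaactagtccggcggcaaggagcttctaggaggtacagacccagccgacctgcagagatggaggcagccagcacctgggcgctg
Cyp2b10: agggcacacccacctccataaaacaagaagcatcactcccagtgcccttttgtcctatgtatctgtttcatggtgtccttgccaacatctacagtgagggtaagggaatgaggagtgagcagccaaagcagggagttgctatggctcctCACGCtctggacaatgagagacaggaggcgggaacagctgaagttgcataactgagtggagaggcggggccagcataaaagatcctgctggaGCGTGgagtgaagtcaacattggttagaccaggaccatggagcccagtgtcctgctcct
Cyp2s1 held none of the 4 motifs searched, and Cyp2b10 held GCGTG 9 bases and CACGC 101 bases before its start. Over all P450 genes, 65 of 85 had an entry in the promoter table, with 73 windows. TATAAA in either orientation was present in 26 of these 73 windows (35.6%) and in 13.6% of all 32851 windows of the table. GCGTG was found in 21.9% of P450 windows and 32.4% of all, AGGTCA, a core motif of nuclear receptor sites, in 24.7% and 16.3%, and AGAACA in 26.03% and 18.97%. A match in such a window is a description of the letters and not a binding site.

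Among the 5 P450 genes of steroid hormone synthesis, Cyp17a1 was lower in FD and the other 4 were not called. Cyp17a1 encodes the hydroxylase and lyase that turns pregnane steroids into androgen precursors. It measured 11.86 and 11.55 in the ND arrays and 7.03 and 6.90 in the FD arrays. Both ND arrays were far above both FD arrays, with a difference of -4.74 (26.7-fold), and duplicates lay far closer together (SD 0.22 in ND and 0.098 in FD). The FD values lay near the level of 6, so that this fold need not give the change of the transcript. Of 18211 probe sets at this level, 17 had a more negative difference. Cyp11a1, which cleaves the cholesterol side chain in the first step of the pathway, measured 5.94 and 6.13 in ND and 6.13 and 6.19 in FD, a difference of 0.13. Cyp21a1, needed for corticosteroids, and Cyp11b1 and Cyp11b2, which make corticosterone and aldosterone, differed by -0.03, 0.01 and -0.02. In these 3 genes the diets overlapped. The other 4 genes had ND means of only 6.04 (Cyp11a1) to 6.97 (Cyp11b2), near the level of 6. A fall of the size of that in Cyp17a1 could not have been seen in them, so whether it was shared cannot be told. Of 6 markers of steroidogenic cells of testis or adrenal, none was called, Hsd3b1 and Hsd17b3 were under 6, and the list summed to 10.36 and 10.33 in ND and 10.50 and 10.46 in FD. The epididymis list moved with Cyp17a1: Adam7, an epididymal membrane protein, measured 12.65 and 12.62 in ND and 5.48 and 5.61 in FD. In this list Gpx5 was under 6 in every array and Lcn8 differed by 0.15, so that not all its markers moved, and the part of epididymal tissue in the Cyp17a1 value was not tested.

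The 19 genes of subfamilies 2c and 2j, many of which epoxidise fatty acids, held 9 genes at a mean of at least 6, of which 2 were lower, 1 was higher and 6 were not called. Cyp2j13 measured 9.10 and 9.57 in ND and 6.45 and 6.47 in FD. The FD arrays were almost equal and both were well under the ND arrays, with a difference of -2.88 (7.35-fold). The FD values lay near the level of 6, so that this fold need not give the change of the transcript. Cyp2j11 measured 7.25 and 7.30 in ND and 5.55 and 5.54 in FD, a difference of -1.73. The FD values were under 6, so that this gene passed the level only through ND, and with values under 6 set to 6 its difference was -1.28. Cyp2j6 measured 9.49 and 9.50 in ND and 9.52 and 9.49 in FD, and Cyp2j9 measured 8.37 and 8.44 against 8.44 and 8.39. In each gene the diets overlapped and the 4 arrays lay close together. The epididymis markers, lower in FD, moved in the direction of Cyp2j13 and Cyp2j11, and their part in these values was not tested. Cyp2j12 lay under 6 with a difference of 0.35. Cyp2j5, which makes epoxides in mouse kidney and liver, measured 5.64 and 5.44 in ND and 6.19 and 6.71 in FD. It was higher by 0.91 without overlap, but its mean of 5.997 was just under the level, so it was not called. Within a run of 6 neighbouring genes the differences therefore ranged from -2.88 to 0.91. Close paralogs of this kind can share probes, so that a value cannot be assigned to a single gene with certainty.

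Cyp2c23, an arachidonic acid epoxygenase, measured 6.87 and 7.05 in ND and 7.60 and 7.70 in FD. Both FD arrays were above both ND arrays, and the difference was 0.69. None of the other 2c genes at a mean of at least 6 was called: Cyp2c66 differed by -0.21, Cyp2c37 by 0.04, Cyp2c54 by 0.13 and Cyp2c70 by 0.18. Of the 2c genes under 6, Cyp2c67, Cyp2c29 and Cyp2c39 were higher in FD by 0.97, 0.91 and 0.63, all without overlap. With values under 6 set to 6, Cyp2c67 and Cyp2c39 differed by 0 and Cyp2c29 by 0.41. Cyp2c67 measured 3.33 and 2.79 in ND and 3.54 and 4.51 in FD, so that its FD duplicates lay about as far apart as the diet means. Cyp2c29 measured 5.54 and 5.45 in ND and 6.30 and 6.52 in FD. The others under 6 (Cyp2c38, Cyp2c50, Cyp2c55, Cyp2c65 and Cyp2c68) ranged from -0.15 to 0.46.

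**Figure D2:**
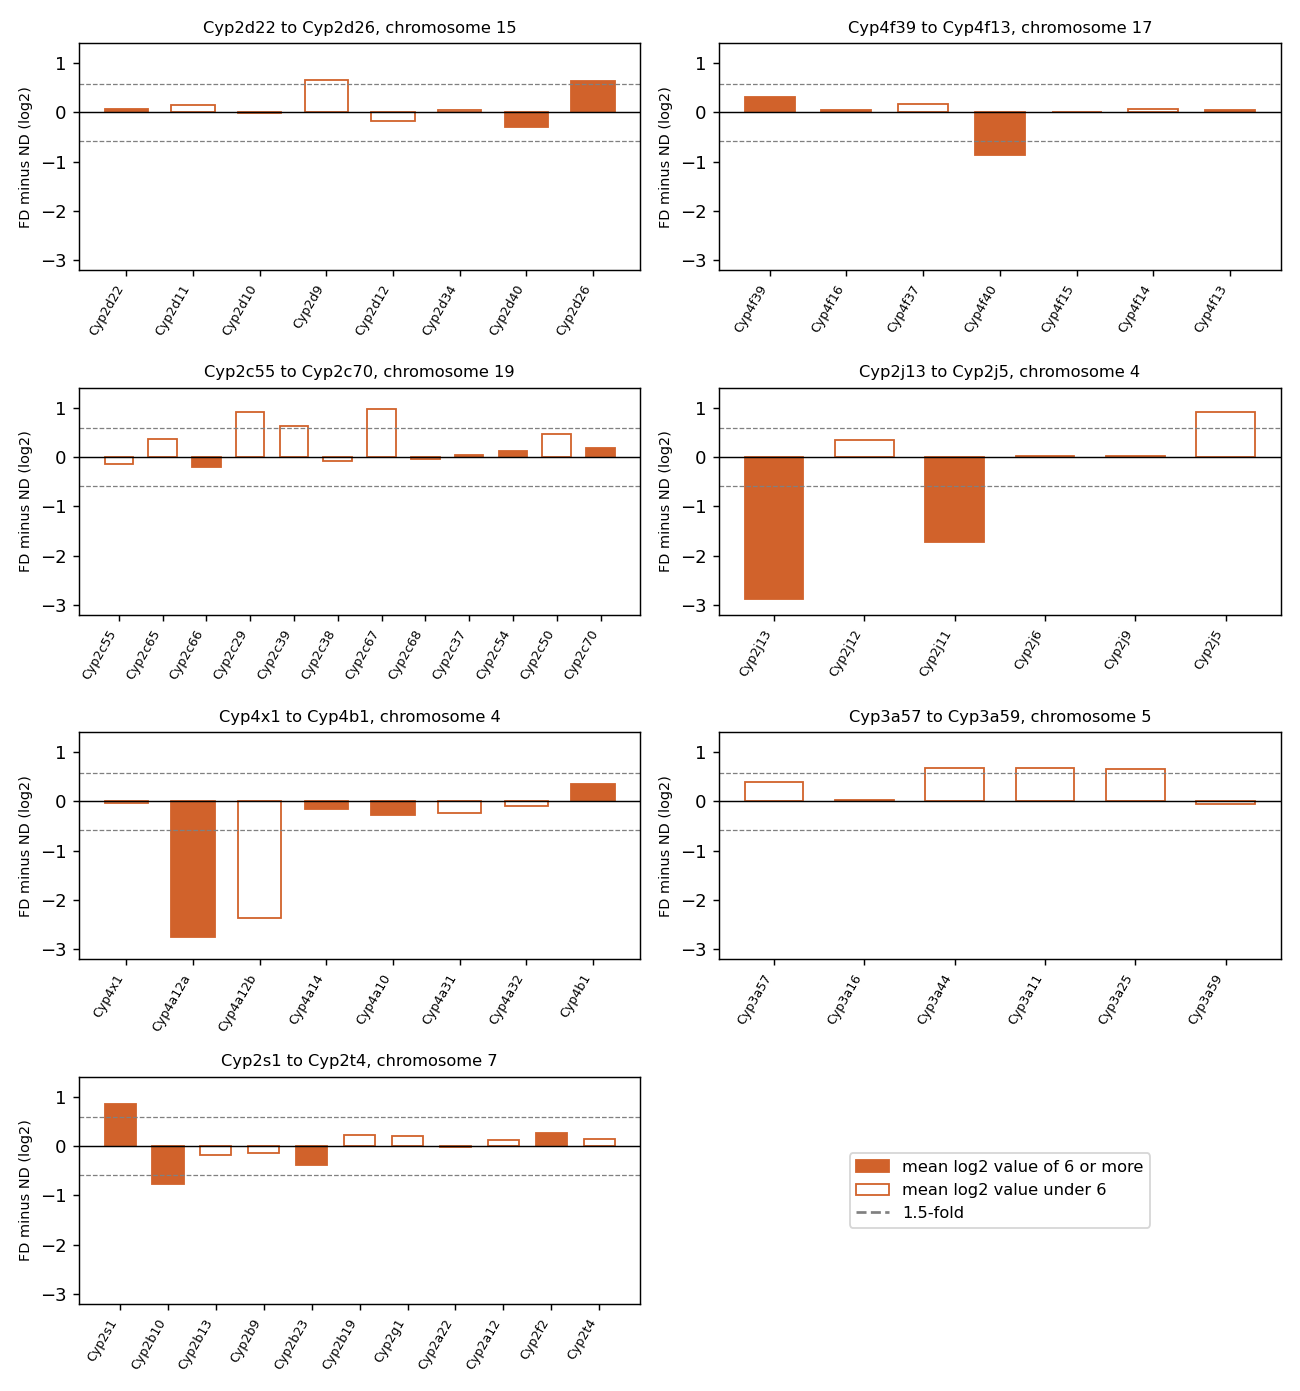
FD minus ND difference (log2, y axis) of P450 genes in 7 chromosomal runs, in RefSeq order (x axis). Bars are filled where the mean over the 4 arrays is at least 6, open where it is less, and dashed lines mark 1.5-fold. Neighbours differ in sign and size in the Cyp2j run, where Cyp2j13 reaches -2.88 and Cyp2j5 0.91, and the run on chromosome 7 starts with Cyp2s1 at 0.85 next to Cyp2b10 at -0.77.

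Family 4 enzymes hydroxylate fatty acids at or near the end of the chain. Of 15 family 4 genes, 10 had a mean of at least 6, with 1 lower, none higher and 9 not called. Cyp4f40 measured 6.83 and 6.82 in ND and 5.94 and 5.99 in FD, a difference of -0.87, with both FD arrays just under 6, and -0.83 with values under 6 set to 6. It passed the level only through ND. Epididymis markers were lower in FD as well, and their part in this value was not tested. It was the only gene of the run of 7 Cyp4f genes on chromosome 17 with a difference below 0. The largest difference of the family that was not called was that of Cyp4v3, the mouse counterpart of a human gene mutated in a corneal and retinal dystrophy, at 11.0004 and 11.0885 in ND and 11.50 and 11.48 in FD. It was higher by 0.45, under the 1.5-fold limit although the gap between the diets exceeded the differences between duplicates. Cyp4b1, which hydroxylates fatty acids and activates some toxins, measured 9.59 and 9.64 in ND and 10.02 and 9.93 in FD (difference 0.36). Cyp4f39, which makes the very long hydroxy fatty acids of the skin barrier, measured 7.61 and 7.73 against 7.93 and 8.02 (difference 0.30). These 3 genes had all FD arrays above all ND arrays, and none reached 1.5-fold. Cyp4a10 and Cyp4a14, targets of the fatty acid receptor PPAR alpha in liver, differed by -0.27 and -0.16. The remaining genes at this level, Cyp4f13, Cyp4f15, Cyp4f16 and Cyp4f18, differed by 0.01 to 0.14, and those under 6 (Cyp4a31, Cyp4a32, Cyp4f14, Cyp4f37 and Cyp4x1) by -0.23 to 0.16.

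The symbols of 2 genes near Cyp4a10 end in a letter, and these genes are not counted among the 85. Cyp4a12a, an androgen-dependent arachidonic acid hydroxylase of male mouse kidney, measured 9.10 and 9.60 in ND and 6.66 and 6.57 in FD, a difference of -2.74. Cyp4a12b measured 6.63 and 7.19 in ND and 4.65 and 4.45 in FD (difference -2.36), with a mean under 6. Both were far apart between the diets, as Cyp2j13 was on the same chromosome, while the neighbouring Cyp4a14, Cyp4a10, Cyp4a31 and Cyp4a32 lay between -0.27 and -0.10. Of the epididymis markers, 8 of 10 were lower in FD, some of which passed the level only through ND. That list, with log2 sums of 15.10 and 15.08 against 12.19 and 12.11, moved in the same direction as both genes. Its part was not tested. Cyp4a12a and Cyp4a12b are close copies and can share probes.

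Of 29 further genes of families 2 and 3, most of them known from the breakdown of drugs and toxins, 10 had a mean of at least 6, with 2 higher, 1 lower and 7 not called. Cyp2s1 measured 8.16 and 8.01 in ND and 8.83 and 9.06 in FD. Each FD array was at least 0.66 above each ND array, and the difference was 0.85, the largest positive value among the called P450 genes. Mesothelial markers moved in the same direction, with 5 of 7 called higher and log2 sums of 12.36 and 12.53 in ND and 13.24 and 13.21 in FD, and their part in the Cyp2s1 value was not tested. Its neighbour Cyp2b10 measured 7.59 and 7.62 in ND and 6.78 and 6.89 in FD, a difference of -0.77 without overlap, in the direction of the epididymis markers, whose part was not tested. Cyp2d26, of a subfamily expressed mainly in liver, measured 6.48 and 6.73 in ND and 7.19 and 7.28 in FD (difference 0.63). This was the weakest call, and it was lost under 2 other scalings, with 0.56 after cyclic loess and 0.57 relative to the adipocyte markers. It was also lost with a filter at 7 (mean 6.92), without ND1 (0.50) and without FD2 (0.584, just short of the limit of 0.585).

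Cyp2e1, which oxidises ethanol, ketones and small fatty acid derivatives, measured 14.02 and 14.12 in ND and 13.88 and 13.86 in FD. Its difference of -0.20 was small, with all FD arrays under all ND arrays. Cyp2f2, which activates naphthalene in mouse lung and liver, differed by 0.26, Cyp2b23 by -0.38 and Cyp2d40 by -0.31, all without overlap and short of 1.5-fold. Cyp2d22 differed by 0.07, Cyp2d10 by -0.02 and Cyp2w1 by 0.14.

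Subfamily 3a holds the main drug-oxidising enzymes of mouse liver, and none of its 7 genes had a mean of at least 6. Cyp3a11, Cyp3a25 and Cyp3a44 were higher in FD by 0.68, 0.65 and 0.68 at this low level, whereas Cyp3a13, Cyp3a16, Cyp3a57 and Cyp3a59 ranged from -0.05 to 0.40. Cyp3a11 measured 4.92 and 4.49 in ND and 5.41 and 5.36 in FD. Cyp3a44 measured 5.95 and 5.06 in ND and 6.06 and 6.31 in FD, so that its ND duplicates lay further apart than the diet means. With diet means under 6 set to 6, Cyp3a11 and Cyp3a25 differed by 0 and Cyp3a44 by 0.18. Of the other genes under 6, Cyp2d9 was higher by 0.66, and Cyp2a12, Cyp2a22, Cyp2b9, Cyp2b13, Cyp2b19, Cyp2d11, Cyp2d12, Cyp2d13, Cyp2d34, Cyp2g1 and Cyp2t4 ranged from -0.18 to 0.36.

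Without the level of 6, 12 of all 85 P450 genes (14.1%) were higher and 5 (5.88%) lower, against 1.36% and 3.87% of all 21225 probe sets (5.23% in either direction). The added genes were 9 of the 37 low P450 genes (24.3%), all higher in FD, and none of these 37 was lower. Of all 3014 probe sets under 6, 1.53% were higher and 1.39% lower, 2.92% together. The 9 genes were Cyp1a2, Cyp2c29, Cyp2c39, Cyp2c67, Cyp2d9, Cyp2j5, Cyp3a11, Cyp3a25 and Cyp3a44, with differences of 0.59 to 0.97. Their ND means were 3.06 to 5.59, all under 6, and in 5 of them the FD mean was above 6. At such levels array signal includes background, and the log2 difference of a dim probe set does not give the change of the transcript. Hepatocyte markers moved in the same direction: albumin (Alb) measured 7.37 and 7.23 in ND and 11.42 and 11.47 in FD, and Serpina1c, a secreted protease inhibitor of liver, 6.17 and 6.20 against 9.18 and 9.25. All 11 hepatocyte markers read had positive differences, with Fabp1 at a mean under 6, and the part of liver RNA in the values of these 9 genes, of Cyp2c23 and of Cyp2d26 was not tested.

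**Figure D3:**
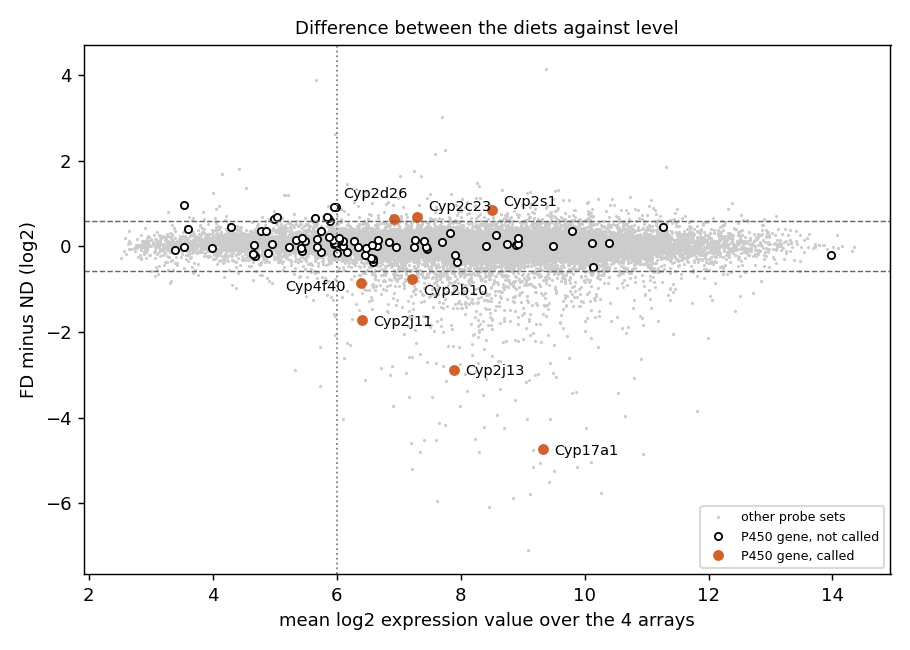
FD minus ND difference (log2, y axis) against the mean log2 expression value over the 4 arrays (x axis), for other probe sets (grey), P450 genes not called (open circles) and P450 genes called (filled). Dashed lines mark 1.5-fold and the dotted line a mean of 6. Cyp17a1 at -4.74 lies lowest of the P450 genes, and a group of P450 genes left of the dotted line lies above the upper dashed line.

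The 3 genes of family 1, which respond to the Ah receptor, were not called. Cyp1b1, which hydroxylates estrogens and is the member of family 1 known from fat and stroma, measured 10.34 and 10.40 in ND and 9.85 and 9.94 in FD. The FD arrays were lower without overlap, by 0.47 on the log2 scale, the largest difference among the 40 P450 genes that were not called. Cyp1a1, the most inducible target of this receptor, differed by -0.01 and overlapped. Cyp1a2, known from liver, measured 5.60 and 5.58 in ND and 6.11 and 6.26 in FD, a difference of 0.59 at a mean under 6. The receptor gene Ahr differed by -0.19.

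The 6 genes of bile acid synthesis and oxysterol handling had no call, with differences of -0.37 to 0.09. Cyp7b1, which hydroxylates oxysterols and androgen precursors, measured 7.97 and 8.30 in ND and 7.72 and 7.81 in FD. The FD arrays were lower by 0.37 without overlap, a difference of about the size of the gap between the ND duplicates. Cyp39a1, another oxysterol hydroxylase, differed by -0.21, and Cyp27a1, the mitochondrial sterol hydroxylase found in many tissues, by 0.07 at 10.04 and 10.12 in ND and 10.18 and 10.13 in FD. Cyp46a1, the cholesterol hydroxylase known from neurons, and Cyp8b1, which sets the share of cholic acid, differed by -0.02 and 0.09. Cyp7a1, the rate-limiting enzyme of bile acid synthesis in liver, was under 6 in all arrays and differed by 0.06.

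None of the vitamin D or retinoic acid genes was called. Cyp2r1 and Cyp27b1, which activate vitamin D in sequence, differed by -0.13 and 0.14, and Cyp24a1, which inactivates it, by -0.05. Cyp26b1 and Cyp26c1, which clear retinoic acid, differed by 0.09 and 0.11 with overlap, and Cyp26a1, at a mean of 5.98, by 0.06. The sign changed under another scaling or without 1 array for Cyp2r1, Cyp24a1, Cyp26a1 and Cyp26c1. Over the whole family this held for 31 of the 85 genes, 18 of them at a mean of at least 6, and the largest difference in size among the 31 was that of Cyp2c66 (-0.21). Cyp2u1, which hydroxylates arachidonic acid, differed by 0.20 without overlap, and Cyp20a1, an orphan member, by 0.02.

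Around the thresholds, the genes just inside the level of 6 were Cyp4a14 (mean 6.01) and Cyp4f18 (6.03), and those just outside were Cyp2j5 and Cyp26a1. For size, Cyp2d26 (0.63) and Cyp2c23 (0.69) were just inside and Cyp1b1 (-0.47) and Cyp4v3 (0.45) just outside. Counting only whether the arrays of the diets overlapped, 14 of the 48 genes lay higher and 12 lower in FD without overlap, and 22 overlapped. Over all probe sets at this level 36.3% were higher and 27.2% lower without overlap, 63.5% together, against 54.2% of the P450 genes.

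The enzymes that work with P450 were examined by lists of known partners. These lists too were written with earlier results of these data known, so their shares are a description only. Electron supply genes, among them Cyb5a (-0.33), Cyb5r1 (0.37) and Cyb5r3 (0.25), gave no call among the 8 of 11 genes that were read, with a median of -0.02. The P450 reductase gene Por was among the 3 not analysed here. Of 12 genes of heme synthesis and breakdown, 1 was lower, Alad, which condenses aminolevulinic acid, at 12.83 and 12.94 in ND and 12.31 and 12.25 in FD (difference -0.61). This call was lost with each array centred on its median (-0.56), without ND2 (-0.55) and without FD2 (-0.577, short of the limit of 0.585 in size). Cpox and Alas2, also of heme synthesis, differed by -0.32 and -0.30. None of 21 receptor genes that control P450 transcription was called (median 0.12), the largest differences being those of the bile acid receptor Nr1h4 (0.44), Ppara (0.31) and Nr1i3, which encodes CAR (0.30).

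Over all 8 partner lists, 3 of 89 genes at a mean of at least 6 were higher (3.37%) and 11 lower (12.4%), against 1.33% and 4.28% of all probe sets at this level. The largest difference was that of Ch25h, which makes an oxysterol that Cyp7b1 breaks down and is not itself a P450, at 10.47 and 10.50 in ND and 6.31 and 6.26 in FD. Its difference of -4.20 was close to that of Cyp17a1, and the arrays within each diet were nearly equal. In both genes the FD values lay near the level of 6. The epididymis markers were also lower in FD, and their part in the values of Ch25h and of the other genes called lower in these lists was not tested. Ptgds, a prostaglandin D synthase, differed by -2.29, and Alox12, a lipoxygenase, by -1.31. Alox15, another lipoxygenase, and Ltc4s, leukotriene C4 synthase, were higher by 0.81 and 0.75. The call of Ltc4s was lost without ND1 (0.55). Of 10 conjugating and related enzymes, 3 were lower and none higher: Sult1c2 (-2.25), Nqo1, a quinone reductase (-1.83), and Sult2b1, a sterol sulfotransferase (-1.25). Of 13 retinoid genes, Aldh1a1, which oxidises retinaldehyde, its relative Aldh1a7 and the retinoic acid carrier Crabp2 differed by -1.25, -0.93 and -0.76 and were called lower. The call of Crabp2 was lost without FD1 (-0.55). Akr1c18, which inactivates progesterone, was higher by 1.03, or by 0.80 with values under 6 set to 6. Its ND mean of 5.77 was under 6, so this gene, 1 of the 3 called higher, passed the level only through FD. The call of Akr1c18 was lost with a filter at 7.

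Of the P450 enzymes whose symbols do not follow the naming pattern, Cyp51, the lanosterol demethylase of cholesterol synthesis, measured 9.77 and 9.75 in ND and 8.94 and 9.02 in FD and was lower by 0.77. The prostacyclin synthase Ptgis and the thromboxane synthase Tbxas1 differed by 0.48 and 0.28 and were not called. With every symbol that starts with Cyp and a digit the P450 genes number 91, of which 3 were higher and 7 lower, adding Cyp4a12a and Cyp51 to the genes that were lower.

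**Figure D4:**
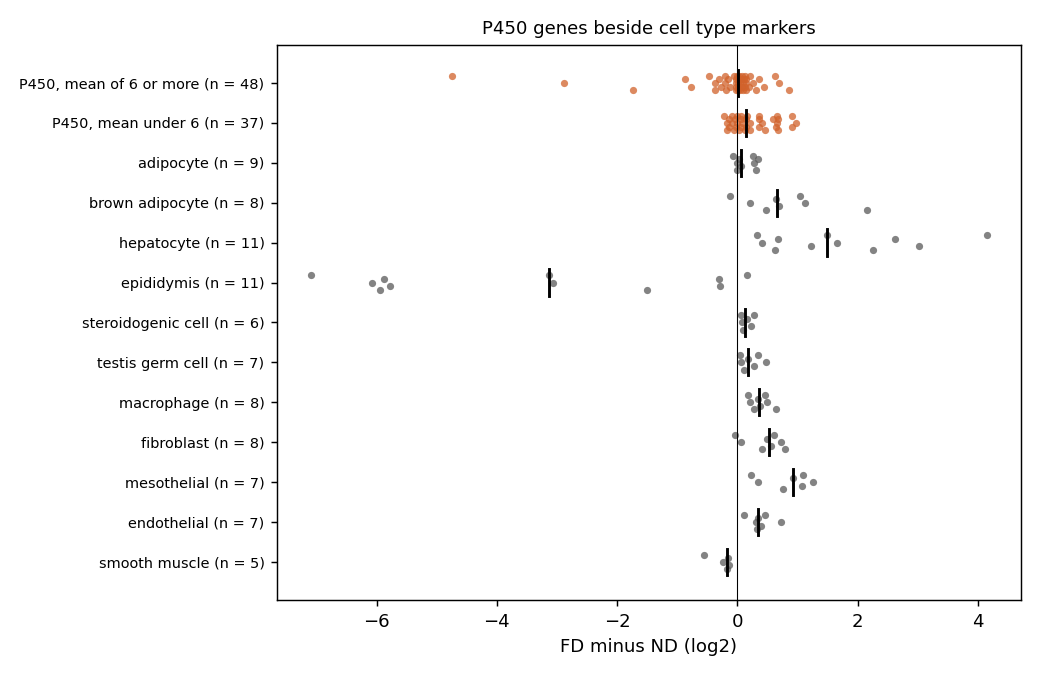
FD minus ND difference (log2, x axis) of each gene (points) in the P450 family, divided by level, and in 11 lists of cell type markers (rows), where black bars are medians over all genes of a row, including marker genes under 6. Epididymis markers reach -7.09 and hepatocyte markers 4.14, beyond the P450 range of -4.74 to 0.97, and the adipocyte markers stay close to 0.

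The other marker lists differed less. Brown adipocyte markers, at log2 sums of 10.57 and 10.74 in ND and 11.43 and 11.42 in FD, had 5 of 8 genes called higher, among them Ucp1 (6.57 and 6.47 against 8.57 and 8.76). Mesothelial markers had 5 of 7 called higher (median 0.92) and fibroblast markers 3 of 8 (median 0.52). Macrophage and endothelial markers had 1 gene each called higher, and testis germ cell and smooth muscle markers none. How far these lists bear on any P450 value was not tested.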

How the data were processed

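The deposited values, per the labels, are log2 expression values that the authors made with RMA from Affymetrix gene 1.0 ST arrays, with 1 probe set per Entrez gene. Their version, and a genome build, are not given in these sources. Depth has no meaning for arrays. The limit is 1 pool a diet, which gives no spread between animals, and duplicate arrays measure technical error only. Probe sets were named from the platform annotation, and all 85 genes matched RefSeq by Entrez ID with 0 symbols changed. Differences are FD minus ND means of 2 arrays. Genes named were those called, those at 9 or more in either diet, the 12 largest differences without overlap, the largest of each role, those next to a threshold and those whose call changed, with the called and 3 largest genes of each partner list; others are given to account for every member. Members were set by the symbol rule alone, whereas the lists were written with earlier results of these data known. Neighbouring members had at most 10 RefSeq genes between them. Alternatives were other level and fold limits, median centring, cyclic loess (limma 3.58.1, R 4.3.3), scaling to adipocyte markers, a wider symbol match, leaving out each array and, chosen after seeing the data, setting values under 6 to 6. For the counts, values were set to 6 in each array, and for differences of single genes in the diet means. Other computations used Python 3.11.15 with pandas 2.3.3.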

Additional observations from a re-analysis of the deposited data

How the results depend on the processing

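The count of P450 genes higher in FD was 3, and it was 12 with no filter on level and 0 at 2-fold. Leaving out 1 array gave 2 to 5, the highest without FD replicate 1, when Cyp2j5 (1.16) and Cyp2c29 (1.02) passed the level. The count lower was 5, and it was 3 with a filter at 7, 3 at 2-fold and 5 without any 1 array. It was 7 with the wider symbol match. Median centring, cyclic loess, the adipocyte scaling, the 1.3-fold limit and values under 6 set to 6 left both counts within 1.5 times. Cyclic loess kept 7 of the 8 called genes, Cyp2d26 being lost. The median difference of 0.01 ranged from -0.05 to 0.06, so that its sign is not settled. Partner genes higher in FD numbered 3, and 5 with no filter, 7 at 1.3-fold and 1 at 2-fold, with 2 to 3 when 1 array was left out. Those lower numbered 11, and 7 at 2-fold, with 10 to 13 when 1 array was left out. Of 266 values of 38 named P450 genes under the alternatives, 25 moved by more than the SD of the duplicates, and the 6 that changed sign were of Cyp26a1, Cyp26c1 and Cyp2j6. No paired analysis was possible because the values come from no test and replicate numbers only name arrays of 1 pool. Signal near background limits the 37 genes under 6.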
